A study of Mus musculus with 20 samples.

Results

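The collagen genes encode the α chains that assemble into the fibrils, sheets and networks of the extracellular matrix. They were taken as the rows of the deposited table whose symbol has the form of a collagen chain (Col, type number, a, chain number). Such rows numbered 44 among the 24528 genes, none of them was at 0 in every library, and all 44 passed the filter on low values. They comprise 11 fibrillar collagens, 8 basement membrane collagens and 25 other collagens. The last class holds 9 fibril-associated collagens with interrupted helices (FACIT), 6 chains of type VI collagen, 4 transmembrane collagens, 3 short chain collagens and 3 further genes.

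As background, collagen chains are hydroxylated and wound around each other in the endoplasmic reticulum, secreted, trimmed of their propeptides and crosslinked. Fibrillar collagens such as types I and III give tissues tensile strength, while type IV collagen forms the sheet of basement membranes. In the adult brain, collagen lies mostly in the meninges and in the walls and basement membranes of vessels, and little of it is found between neurons.

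RNA-seq libraries of ribosome-depleted total RNA were made from whole neocortex and whole hippocampus of mice 18 months old. TDP-43KQ/KQ mice are homozygous for an acetylation-mimic lysine-to-glutamine substitution, with silent changes beside it, knocked into endogenous Tardbp, the gene of the RNA-binding protein TDP-43, whereas TDP-43wt mice carry the unchanged gene. The allele was made in C57BL/6J zygotes and is present in every cell, and several founders were obtained. The paper's results speak of a founder line that was propagated, and its methods of founder lines in the plural. The founder behind each sequenced animal is not given in the sources used here. The groups were neocortex TDP-43wt (5 libraries, 3 female and 2 male), neocortex TDP-43KQ/KQ (6 libraries, 3 female and 3 male), hippocampus TDP-43wt (4 libraries, 3 female and 1 male) and hippocampus TDP-43KQ/KQ (5 libraries, 3 female and 2 male). The comparisons ask how collagen classes differ between genotypes in each region and between regions in each genotype.

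Values are on a log2-like scale after a variance-stabilizing transformation and are relative to each gene's mean over the neocortex TDP-43KQ/KQ libraries, so they state no absolute level and no sequencing depth. Differences are fitted log2 differences ± standard error (SE), and they understate fold changes of weakly expressed genes. The adjusted p is that of limma after Benjamini-Hochberg adjustment over 17863 genes, called below 0.05. Tardbp, the edited gene, was at -1.07 to -0.90 in neocortex TDP-43wt and at -0.098 to 0.13 in neocortex TDP-43KQ/KQ, and the genotypes were also separate in the hippocampus (-1.03 to -0.62 against -0.16 to 0.16). The mean of 10 hippocampal markers was at most 0.21 in the neocortex libraries, and in the hippocampus it was 2.02 to 2.11 in TDP-43wt and 1.64 to 1.98 in TDP-43KQ/KQ, without overlap.

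Because sex and litter had been removed from the values, some libraries are tied to each other. Neocortex TDP-43wt male replicate 1 was alone in its litter, sits exactly at its group's fitted value and adds nothing to any test. The neocortex and hippocampus libraries of TDP-43KQ/KQ female replicate 2 were the only ones of their litter, so their deviations from their groups are mirror images and amount to 1 measurement. TDP-43wt female replicate 2 stood apart: its hippocampus library was the lowest of the region for 30 of 44 collagens (22.2% of all genes) and its neocortex library for 23 of 44 (21.3%).

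Between the genotypes the collagens leaned to 1 side, but no single collagen passed the threshold. The fitted difference (TDP-43KQ/KQ minus TDP-43wt) was positive in the neocortex for 40 of 44 collagens, beside 49.3% of all genes, and in the hippocampus for 38 of 44, beside 49.6%. None of the 44 was called in the neocortex (0.224% of all genes called) or in the hippocampus (0.386%) with limma. At an unadjusted p under 0.05 there were 11 collagens in the neocortex and 13 in the hippocampus, beside 2581 and 2650 of all genes. Leaving out the hippocampus library of TDP-43wt female replicate 2 lowered the positive count there to 31 of 44. In the same hippocampal comparison 8 of 10 hippocampal markers (median -0.24) and 8 of 10 neocortical markers (median -0.13) were negative, with none called, and their part in the collagen differences was not tested. In bulk tissue fewer cells of a type and less RNA per cell cannot be told apart.

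With neither sex nor litter in the fit, 8 collagens passed in the neocortex and 10 in the hippocampus, along with 2381 and 2077 of all genes. That fit counts the degrees of freedom already spent on removing sex and litter as if they were free. The 8 were Col6a2, Col6a1, Col2a1, Col6a4, Col4a1, Col26a1, Col16a1 and Col4a2, and the 10 were Col1a2, Col18a1, Col6a2, Col14a1, Col4a5, Col13a1, Col4a3, Col9a1, Col6a1 and Col4a4.

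By class, the median difference of the fibrillar collagens was 0.18 in neocortex and 0.13 in hippocampus, with 10 and 9 of 11 positive. For the basement membrane collagens the medians were 0.19 and 0.39, and 8 of 8 were positive in each region. For the other collagens they were 0.11 and 0.19, with 22 and 21 of 25 positive. Over all genes tested the medians were -0.0017 and -0.0010.

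In the hippocampus the library medians of the basement membrane class did not overlap between the genotypes, by a narrow gap. They were -0.22, 0.063, 0.17 and 0.20 in the TDP-43wt libraries and 0.22, 0.30, 0.33, 0.56 and 0.68 in the TDP-43KQ/KQ libraries. In the neocortex they were -0.29, -0.25, -0.21, -0.19 and -0.071 in TDP-43wt and -0.14 to 0.094 in TDP-43KQ/KQ, which overlapped. The fibrillar and other classes overlapped in both regions, in the hippocampus the latter only between 0.056 and 0.058. Without hippocampus TDP-43wt female replicate 2 the median hippocampal difference of the basement membrane class was 0.24 and that of the fibrillar class -0.0013. With the choroid plexus marker mean of each library as a covariate, described further on, the hippocampal medians were 0.27 for the basement membrane, 0.24 for the fibrillar and 0.19 for the other collagens. The class medians were not tested, since the classes were described with earlier results known. Among single genes, 4.19% had every hippocampus TDP-43KQ/KQ library above every TDP-43wt library, and 5.45% had every one below. Such a share was not computed for class medians, and libraries tied by the removal of sex and litter enter these ranges.

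**Figure D1:**
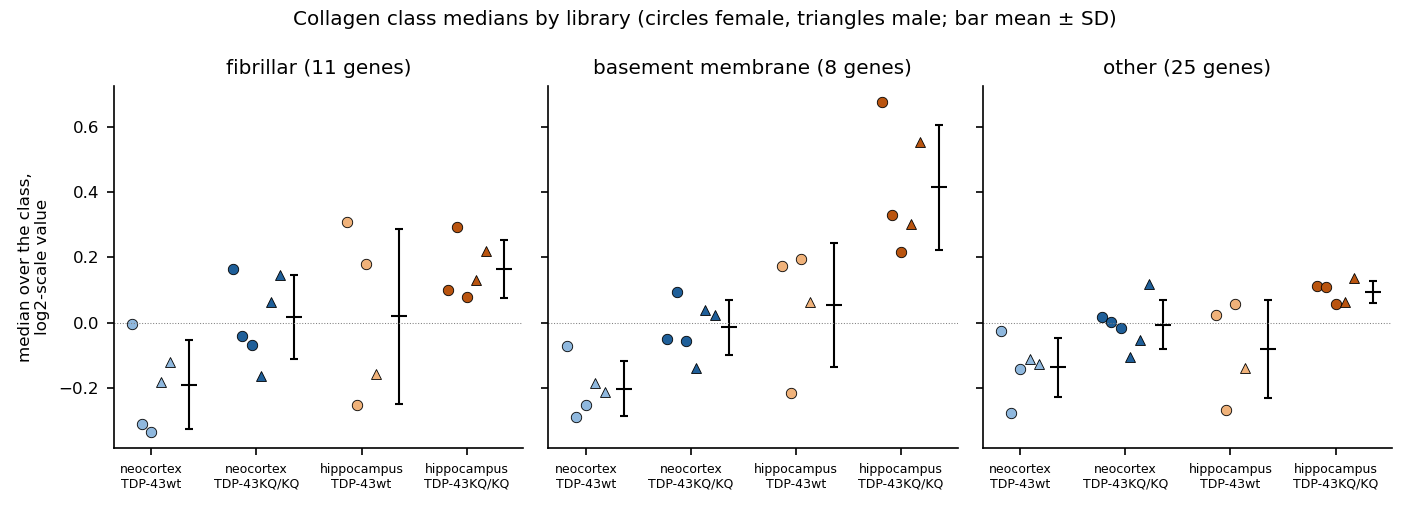
Median log2-scale value over each collagen class (vertical axis) in every library, by region and genotype (horizontal axis); circles are female and triangles male libraries, and the bar is the group mean ± SD. In the middle panel hippocampus TDP-43KQ/KQ lies at 0.22 to 0.68 and hippocampus TDP-43wt at -0.22 to 0.20.

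**Figure D2:**
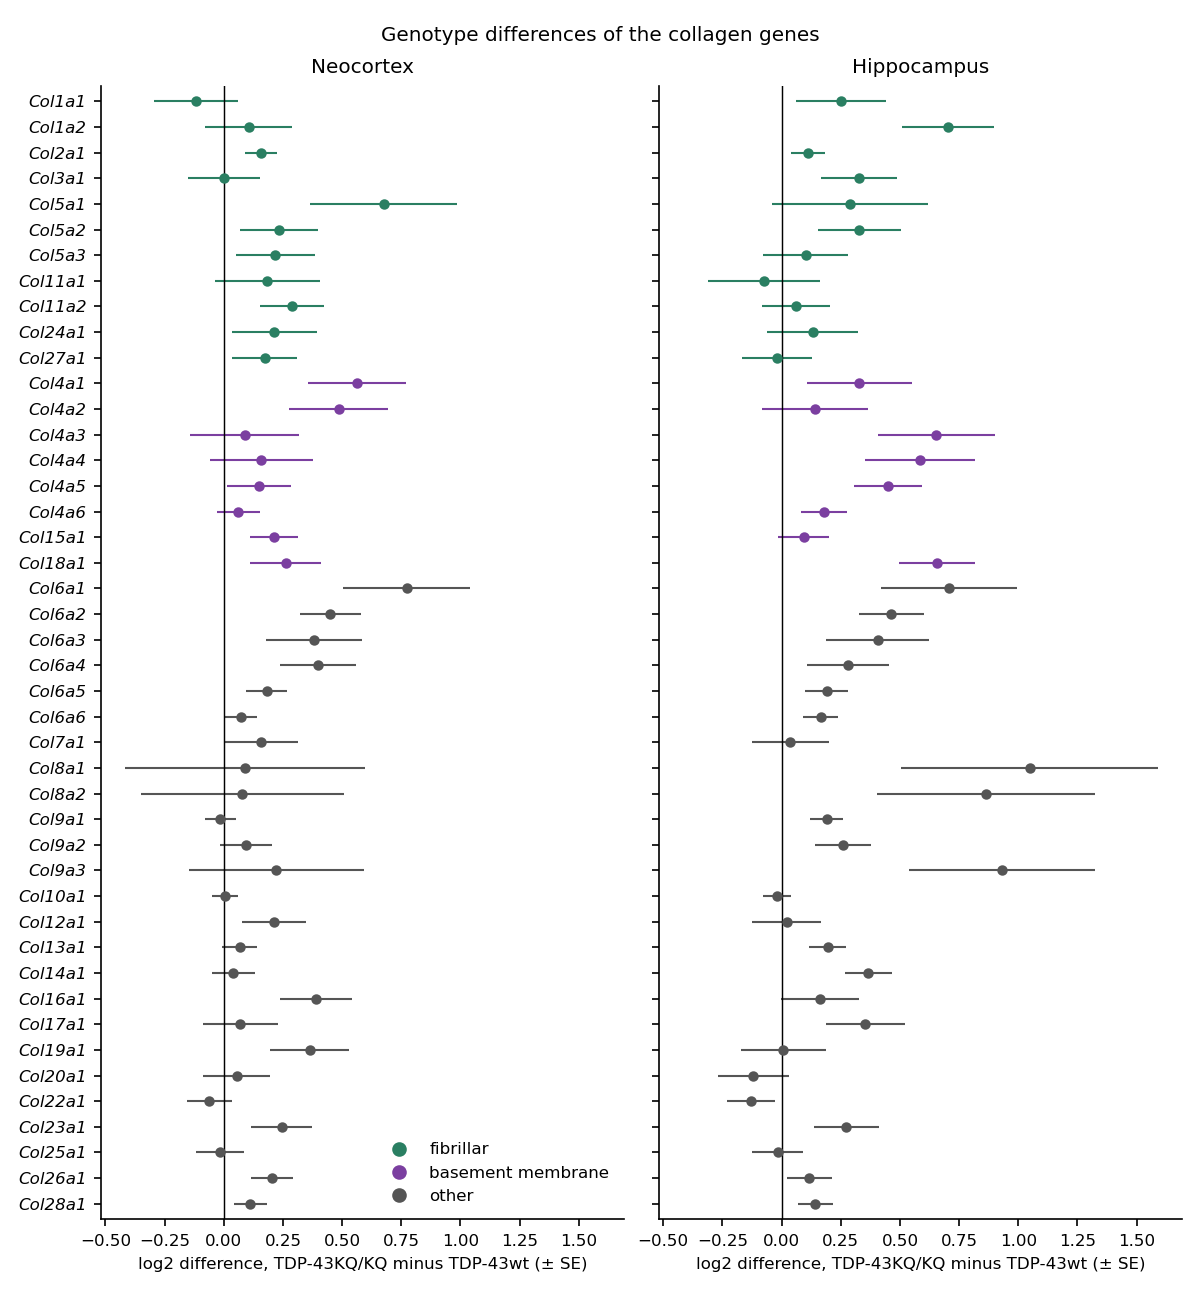
Fitted log2 difference of TDP-43KQ/KQ minus TDP-43wt (horizontal axis, bars ± SE) for each of the 44 collagens (vertical axis), coloured by class. In the neocortex 40 points and in the hippocampus 38 lie right of 0, and none passed the adjusted threshold.

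Type VI collagen, a microfibril network beside basement membranes, gave the highest statistics of the neocortex. Col6a1 and Col6a2, chains of 1 heterotrimer, lie on the minus strand of chromosome 10 (GRCm38.p6), Col6a2 at chr10:76595756-76623630 and Col6a1 at chr10:76708792-76726044. The windows of 250 bases before their RefSeq starts are shown because both genes led the neocortex comparison; they read 5′ to 3′, with capitals for a TATA box (TATAAA or TTTATA), a GC box (GGGCGG or CCGCCC) or a CCAAT box (CCAAT or ATTGG), each pair covering both strands.
Col6a1 (chr10:76726045-76726294, minus strand): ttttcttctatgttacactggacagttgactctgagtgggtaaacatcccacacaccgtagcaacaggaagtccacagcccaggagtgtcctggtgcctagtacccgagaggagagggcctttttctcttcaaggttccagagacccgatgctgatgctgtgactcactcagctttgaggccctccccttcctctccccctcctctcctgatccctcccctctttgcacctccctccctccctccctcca
Col6a2 (chr10:76623631-76623880, minus strand): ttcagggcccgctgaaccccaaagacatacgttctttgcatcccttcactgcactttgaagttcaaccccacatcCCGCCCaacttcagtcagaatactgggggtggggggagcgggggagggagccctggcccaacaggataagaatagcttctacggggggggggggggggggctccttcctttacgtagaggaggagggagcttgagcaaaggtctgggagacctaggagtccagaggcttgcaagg
The Col6a1 window held none of these letters and the Col6a2 window 1 GC box. Of 27025 RefSeq windows of this length 13.0% held a TATA box, 33.0% a GC box and 34.5% a CCAAT box; among the windows of genes tested here the shares were 7.8%, 53.4% and 35.6%. Of the 35 collagens with a window 5 (14.3%), 21 (60.0%) and 12 (34.3%) did. A match is a run of letters, not a site shown to be bound.

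Col6a1 was at -1.15, -0.80, -0.77, -0.58 and -0.56 in neocortex TDP-43wt and ran from -0.36 through a median of -0.066 to 0.39 in neocortex TDP-43KQ/KQ. All TDP-43KQ/KQ libraries lay above all TDP-43wt libraries, and the difference was 0.77 ± 0.27 (95% interval 0.20 to 1.35, adjusted p = 0.238). In the hippocampus Col6a1 was at -2.47, -1.69, -1.39 and -1.02 in TDP-43wt and at -1.39, -0.97, -0.96, -0.80 and -0.55 in TDP-43KQ/KQ. The lowest of these is TDP-43wt female replicate 2, the groups overlapped, and the difference was 0.71 ± 0.29 (adjusted p = 0.276).

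Col6a2 varied less within groups. Its neocortex values were -0.59, -0.45, -0.43, -0.40 and -0.39 in TDP-43wt and ran from -0.19 through a median of -0.0038 to 0.16 in TDP-43KQ/KQ, without overlap. The difference was 0.45 ± 0.13 (95% interval 0.17 to 0.73, adjusted p = 0.169). In the hippocampus it was at -1.18, -1.10, -0.87 and -0.67 in TDP-43wt and at -0.68, -0.65, -0.62, -0.30 and -0.21 in TDP-43KQ/KQ, where the highest TDP-43wt library reached into the TDP-43KQ/KQ range, and the difference was 0.46 ± 0.14 (adjusted p = 0.165).

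All 6 type VI chains had positive differences in both regions, with medians of 0.39 and 0.34. Col6a3, the long chain of the heterotrimer, had 0.38 ± 0.20 in neocortex and 0.41 ± 0.22 in hippocampus. Col6a4, an alternative long chain, had 0.40 ± 0.16 and 0.28 ± 0.17, and Col6a5 and Col6a6, its neighbours on chromosome 9, had 0.18 and 0.072 in neocortex and 0.19 and 0.16 in hippocampus.

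Col4a1, which forms the main type IV network of vessels together with Col4a2, had the next highest statistic of the neocortex. Both genes start head to head on chromosome 8 and overlap by 85 bases, and whether counting used strand is not given in the sources used here, so reads there are uncertain. Col4a1 was at -0.88, -0.68, -0.56, -0.40 and -0.29 in neocortex TDP-43wt and ran from -0.25 through a median of 0.022 to 0.29 in TDP-43KQ/KQ. The groups did not overlap, and the difference was 0.56 ± 0.21 (95% interval 0.12 to 1.01, adjusted p = 0.258), with 0.49 ± 0.21 for Col4a2 (adjusted p = 0.311). In the hippocampus Col4a1 was at -0.92, -0.39, 0.11 and 0.14 in TDP-43wt and -0.16 to 0.19 in TDP-43KQ/KQ, with a difference of 0.33 ± 0.22.

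Counted without a test, 4 collagens (Col4a1, Col6a1, Col6a2 and Col6a4) had every neocortex TDP-43KQ/KQ library above every TDP-43wt library, beside 4.29% of all genes. In the hippocampus 2 did, Col18a1 and Col14a1, beside 4.19%.

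**Figure D3:**
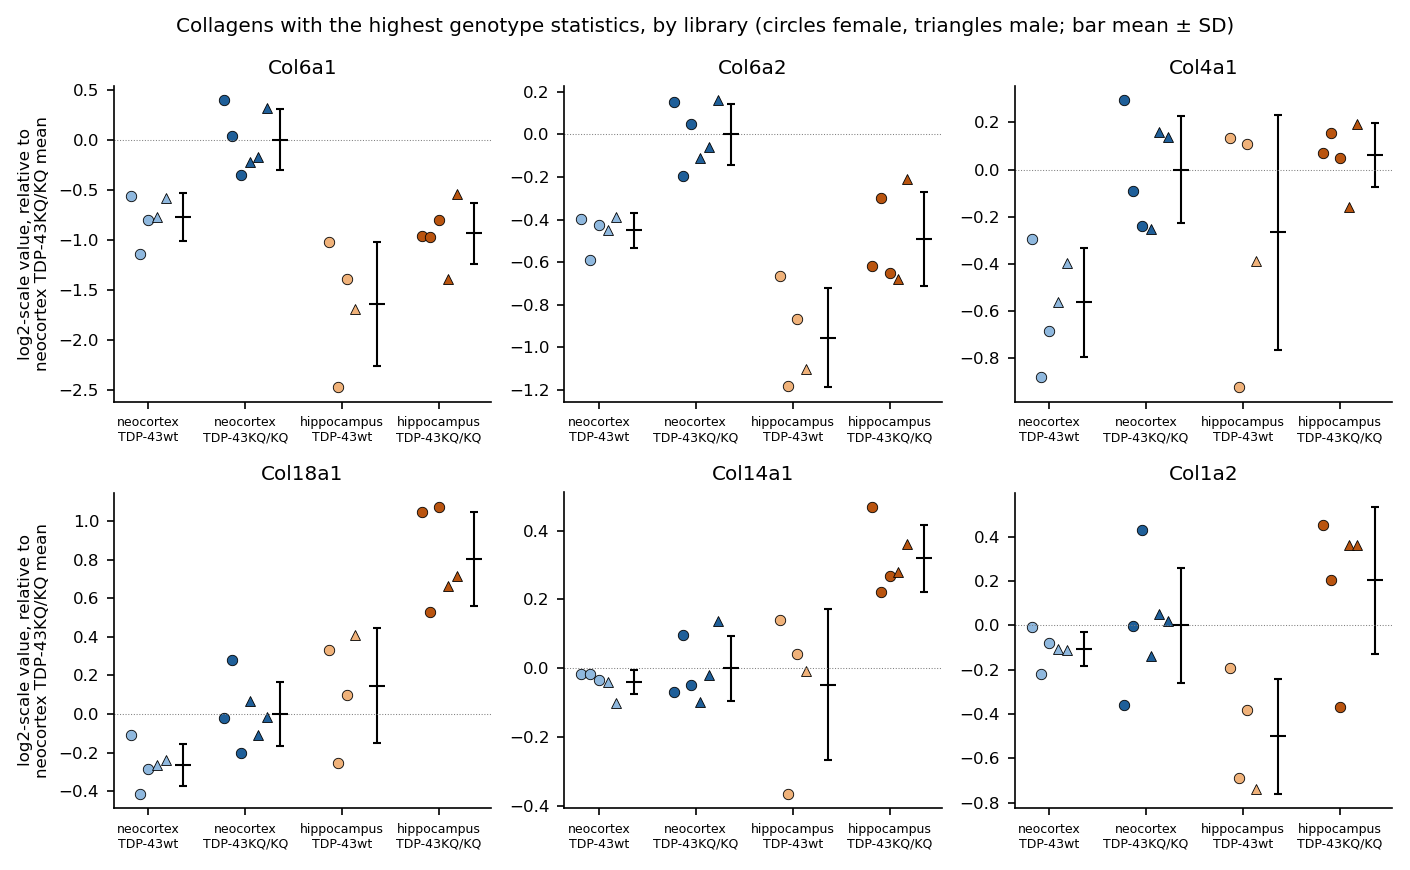
Log2-scale value relative to the neocortex TDP-43KQ/KQ mean (vertical axes) of the 3 collagens with the highest genotype statistic in each region, 1 point per library (circles female, triangles male), with the group mean ± SD as a bar. Col6a1, Col6a2 and Col4a1 do not overlap between genotypes in the neocortex, nor Col18a1 and Col14a1 in the hippocampus.

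Col18a1, whose product is a basement membrane proteoglycan and the precursor of endostatin, had the lowest adjusted p of the hippocampus. It was at -0.25, 0.10, 0.33 and 0.41 in TDP-43wt and at 0.53, 0.66, 0.71, 1.04 and 1.07 in TDP-43KQ/KQ. The difference was 0.66 ± 0.16 (95% interval 0.31 to 1.00, adjusted p = 0.0941). It passed, at adjusted p = 0.0462 with limma, when either library of TDP-43KQ/KQ female replicate 2 was left out. Its adjusted p reached 0.581 without hippocampus TDP-43KQ/KQ female replicate 1. Over all genes the calls moved too, to 93 in the former fits and 8 in the latter, from 69 in the main fit. In the neocortex Col18a1 had 0.26 ± 0.15. Col15a1, the related collagen of the vessel wall, had 0.21 ± 0.10 and 0.094 ± 0.11 in the 2 regions.

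Col14a1, a FACIT collagen on the surface of fibrils, was at -0.36, -0.0070, 0.043 and 0.14 in hippocampus TDP-43wt and at 0.22, 0.27, 0.28, 0.36 and 0.47 in TDP-43KQ/KQ, without overlap. The difference was 0.37 ± 0.098 (95% interval 0.16 to 0.58, adjusted p = 0.123). Without both libraries of TDP-43wt female replicate 2 it was 0.26 ± 0.072 (adjusted p = 0.204). In the neocortex it was 0.041 ± 0.092.

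Col1a2, a chain of type I collagen, led the fibrillar class in the hippocampus. It was at -0.74, -0.69, -0.38 and -0.19 in TDP-43wt and at -0.37, 0.21, 0.36, 0.36 and 0.45 in TDP-43KQ/KQ, where female replicate 3 alone fell inside the TDP-43wt range. The difference was 0.70 ± 0.19 (95% interval 0.29 to 1.12, adjusted p = 0.138). Without that library it was 0.90 (adjusted p = 0.00851 with limma), in a fit that called 114 of all genes in place of 69. Leaving out hippocampus TDP-43KQ/KQ female replicate 1 instead raised the adjusted p to 0.690, with 8 of all genes called. The lowest difference was 0.55, without hippocampus TDP-43wt male replicate 1. Col1a1, its partner chain, had 0.25 ± 0.19, and Col3a1, of type III collagen, 0.33 ± 0.16. In the neocortex the same genes were at 0.10 ± 0.18 (Col1a2), -0.12 ± 0.18 (Col1a1) and 0.0013 ± 0.15 (Col3a1).

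The lowest genotype statistics belonged in the neocortex to Col1a1, Col22a1 (-0.061 ± 0.095) and Col9a1 (-0.015 ± 0.065). In the hippocampus they belonged to Col22a1 (-0.13 ± 0.10), Col20a1 (-0.12 ± 0.15) and Col10a1 (-0.021 ± 0.058). Col22a1, Col20a1 and Col9a1 are FACIT collagens. For all 6 differences the 95% interval spanned 0.

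The difference of the genotype effects between the regions was tested directly. None of the 44 collagens and none of all genes (0%) was called with limma, and the lowest adjusted p of a collagen was 0.815. The share with an unadjusted p under 0.05 was near the background: 3 collagens (6.8%) beside 1041 of all genes (5.8%). These were Col14a1, with 0.33 more in the hippocampus (95% interval 0.060 to 0.59), Col1a2, with 0.60 more (0.069 to 1.13), and Col9a1, with 0.21 more (0.017 to 0.39). For Col6a1 the contrast was -0.063 (-0.84 to 0.72) and for Col6a2 0.013 (-0.36 to 0.39), both spanning 0.

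Between hippocampus and neocortex, 6 of 44 collagens (13.6%) were called in TDP-43wt, beside 28.2% of all genes, and 15 of 44 (34.1%) in TDP-43KQ/KQ, beside 35.4%. The latter share is near the background. The former count became 15 without hippocampus TDP-43wt female replicate 2, where 5882 of all genes were called. It became 3 without neocortex TDP-43wt female replicate 3, where 3653 of all genes were called. Female libraries of the 2 regions may stem from the same mice, which the labels do not state. Col6a1, Col6a2 and Col10a1 (lower in hippocampus) and Col5a2 and Col25a1 (higher) were called in both genotypes.

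Col25a1, a transmembrane collagen of neurons first known from amyloid plaques, was at 0.45, 0.49, 0.51 and 0.65 in hippocampus TDP-43wt and at 0.29, 0.49, 0.51, 0.54 and 0.70 in hippocampus TDP-43KQ/KQ. In the neocortex it was at -0.074, 0.0069, 0.017, 0.061 and 0.074 in TDP-43wt and -0.23 to 0.21 in TDP-43KQ/KQ, so the regions did not overlap in either genotype. The region difference was 0.51 ± 0.10 in TDP-43wt (adjusted p = 0.00182) and 0.51 ± 0.092 in TDP-43KQ/KQ (adjusted p = 0.000490), and the genotype differences were -0.017 ± 0.10 (neocortex) and -0.016 ± 0.11 (hippocampus).

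Col10a1, the short chain collagen of hypertrophic cartilage, was at -0.32, -0.28, -0.20 and -0.10 in hippocampus TDP-43wt and -0.38 to -0.17 in hippocampus TDP-43KQ/KQ, and at -0.026 to 0.042 and -0.039 to 0.068 in the neocortex of the same genotypes. The hippocampus was lower by 0.22 ± 0.056 (adjusted p = 0.00722) and 0.25 ± 0.049 (adjusted p = 0.00104), without overlap. Its upstream window, which lies within the gene Nt5dc1, is shown for its TATA box. Whether reads of the overlapping Nt5dc1 were kept apart from those of Col10a1 is not given in the sources used here.
Col10a1 (chr10:34389731-34389980, plus strand): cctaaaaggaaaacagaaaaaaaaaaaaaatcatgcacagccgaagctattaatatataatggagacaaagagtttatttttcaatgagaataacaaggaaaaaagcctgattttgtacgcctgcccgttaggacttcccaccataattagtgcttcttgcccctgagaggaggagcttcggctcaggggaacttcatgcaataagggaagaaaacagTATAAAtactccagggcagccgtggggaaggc

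Col6a1 was lower in the hippocampus by 0.87 ± 0.28 in TDP-43wt (adjusted p = 0.0277) and 0.93 ± 0.24 in TDP-43KQ/KQ (adjusted p = 0.00712), and Col6a2 by 0.50 ± 0.13 (adjusted p = 0.0100) and 0.49 ± 0.12 (adjusted p = 0.00405). The TDP-43wt call of Col6a1 was lost with any of 5 TDP-43wt libraries left out (adjusted p up to 0.0788 with limma), and without hippocampus female replicate 2 the difference was -0.57. Col6a3, of the same heterotrimer, had positive region differences of 0.39 ± 0.21 and 0.42 ± 0.18 and was not called.

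Col5a2, a minor chain in type I fibrils, was higher in the hippocampus by 0.59 ± 0.17 in TDP-43wt (adjusted p = 0.0158) and 0.69 ± 0.15 in TDP-43KQ/KQ (adjusted p = 0.00197). Its hippocampal values were -0.13, 0.25, 0.61 and 0.72 in TDP-43wt, where female replicate 2 is the lowest, and 0.47 to 0.91 in TDP-43KQ/KQ. Col3a1, its neighbour on chromosome 1, had -0.048 ± 0.15 and 0.28 ± 0.14 and was not called.

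Col11a2, a fibrillar collagen of cartilage, passed in TDP-43wt (0.46 ± 0.14, adjusted p = 0.0206) and had 0.23 ± 0.12 in TDP-43KQ/KQ. In TDP-43KQ/KQ 10 further collagens passed. Higher in the hippocampus were Col9a3 (1.23 ± 0.33), Col8a2 (1.19 ± 0.39), Col4a3 (0.84 ± 0.21), Col18a1 (0.80 ± 0.14), Col4a4 (0.80 ± 0.20), Col4a5 (0.58 ± 0.12), Col14a1 (0.32 ± 0.082) and Col4a6 (0.27 ± 0.083). Col4a3 and Col4a4 overlap by 114 bases, so reads there are uncertain as for Col4a1 and Col4a2. Lower were Col24a1 (-0.52 ± 0.16) and Col26a1 (-0.24 ± 0.080). Their adjusted p lay between 0.000286 (Col18a1) and 0.0263 (Col8a2). The test of the difference between genotypes, given above, called none of them. With 1 library left out, the TDP-43KQ/KQ call of Col8a2 was lost in 6 of 20 fits (0.78 without hippocampus TDP-43KQ/KQ female replicate 1) and that of Col26a1 in 5. The Col24a1 call was lost without hippocampus TDP-43KQ/KQ female replicate 1. The Col4a6 call was lost without that library and also without hippocampus TDP-43KQ/KQ male replicate 2. The TDP-43wt calls of Col11a2 and Col5a2 were lost in 4 and 4 such fits, Col11a2 being at 0.26 without hippocampus TDP-43wt female replicate 3.

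Of the 8 basement membrane collagens 5 were called in TDP-43KQ/KQ (35.4% of all genes) and none in TDP-43wt (28.2%), and whether these counts differ was not tested. In TDP-43wt 8 of 8 were positive (median 0.29, beside 0.43 in TDP-43KQ/KQ with 7 of 8 positive). The medians were 0.28 in TDP-43wt and 0.20 in TDP-43KQ/KQ for the fibrillar collagens and 0.095 and 0.11 for the other collagens, beside 0.0054 and 0.013 over all genes.

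**Figure D4:**
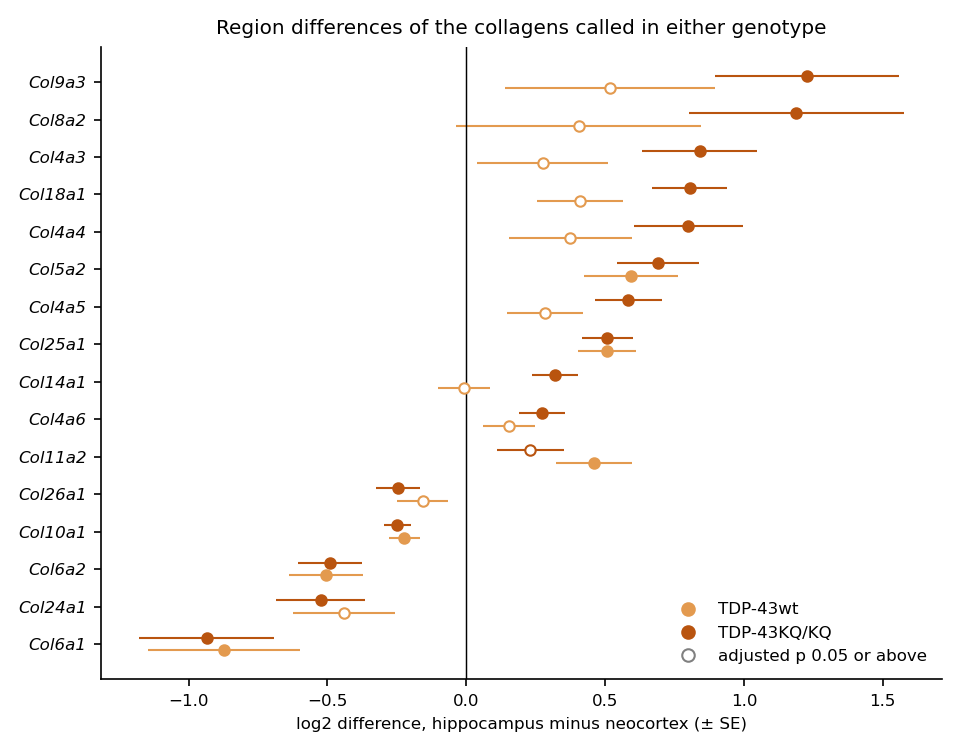
Fitted log2 difference of hippocampus minus neocortex (horizontal axis, bars ± SE) in TDP-43wt and TDP-43KQ/KQ for the 16 collagens called in either genotype (vertical axis), with open symbols where the adjusted p was 0.05 or above. Col25a1 lies at 0.51 in both genotypes, and Col6a1 is the leftmost gene in both.

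Some collagens were high in the same libraries as markers of the choroid plexus, the secretory epithelium of the ventricles next to the hippocampus. They were picked after their values were seen: Col8a1 and Col8a2, short chain collagens, Col9a3, a FACIT chain, and Col4a3 and Col4a4, type IV chains of specialised basement membranes. The mean of 15 choroid markers, among them Ttr, Kl and Folr1, ran from -0.40 to 0.67 in neocortex TDP-43wt, -0.81 to 1.61 in neocortex TDP-43KQ/KQ, -0.11 to 1.85 in hippocampus TDP-43wt and 0.29 to 3.4 in hippocampus TDP-43KQ/KQ. In the hippocampus 15 of 15 markers had positive genotype differences (median 1.09) with none called. Between regions 14 of 15 were called higher in the hippocampus of TDP-43KQ/KQ, beside 17.2% of all genes. In TDP-43wt 15 of 15 were also higher in the hippocampus (median 0.72), with none called, beside 13.5% of all genes. The difference of the genotype effects between regions was called for none of the 15.

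Hippocampus TDP-43KQ/KQ female replicate 1 had the highest marker mean, 3.4, and the highest value of all 20 libraries for Col8a1, Col8a2, Col9a3, Col4a3 and Col4a4. Col8a1 was at -0.12, 0.41, 1.05, 1.24 and 2.48 in hippocampus TDP-43KQ/KQ and at -0.77, -0.62, 0.28 and 0.98 in hippocampus TDP-43wt. Col8a2 ran from 0.082 to 2.29 in TDP-43KQ/KQ and from -0.29 to 1.05 in TDP-43wt. Both genes overlapped between the genotypes, and in each group the libraries with the highest marker mean had the highest values of Col8a2. The libraries of TDP-43KQ/KQ female replicate 2 mirror each other here too, and that replicate gave the highest neocortex value of its genotype for both genes.

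The hippocampal genotype differences were 1.05 ± 0.54 for Col8a1, 0.86 ± 0.46 for Col8a2, 0.93 ± 0.39 for Col9a3, 0.65 ± 0.25 for Col4a3 and 0.58 ± 0.23 for Col4a4. With each library's marker mean as a covariate, a fit added after seeing the data, they were 0.19 ± 0.19, 0.11 ± 0.099, 0.30 ± 0.12, 0.30 ± 0.14 and 0.23 ± 0.11 in the same order. Col18a1, Col14a1 and Col1a2 had 0.51 ± 0.15, 0.32 ± 0.11 and 0.65 ± 0.21 in that fit. The part of choroid plexus tissue in these values was not tested.

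In the same fit the region difference of TDP-43KQ/KQ was -0.078 ± 0.10 for Col8a2 and 0.16 ± 0.12 for Col9a3. It called 3739 of all genes in place of 6316, and 5 collagens. Of these Col10a1, Col18a1, Col25a1 and Col5a2 are among the 15, and Col17a1, a transmembrane collagen of epithelia (-0.30 ± 0.089), is not. Without the covariate Col17a1 averaged 0.12 in hippocampus TDP-43KQ/KQ relative to the neocortex of that genotype, so its sign changed. Between the regions of TDP-43wt the covariate fit called 8 collagens in place of 6, gaining Col17a1 and Col8a1. There it called 4821 of all genes in place of 5041. About the group means the correlation of Col17a1 with the marker mean over 20 libraries was 0.90. It was 0.98 for Col8a2, 0.97 for Col9a3, 0.95 for Col8a1, 0.91 for Col4a4 and 0.87 for Col4a3. Libraries tied by the removal of sex and litter enter these values.

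**Figure D5:**
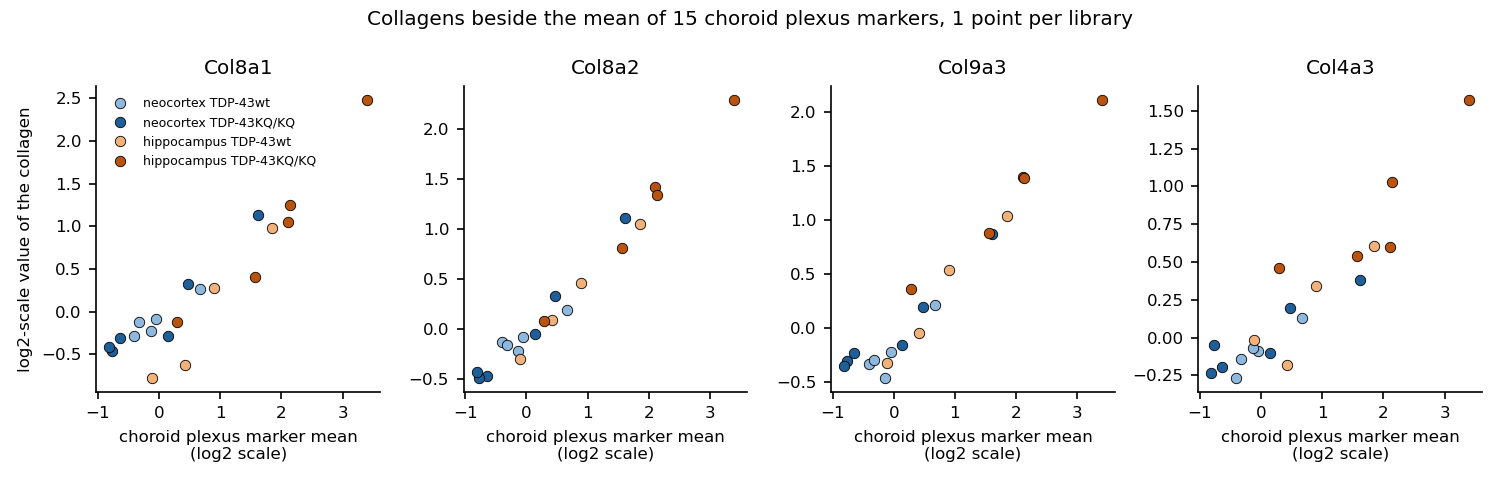
Log2-scale value of Col8a1, Col8a2, Col9a3 and Col4a3 (vertical axes) against the mean of 15 choroid plexus markers (horizontal axis), 1 point per library, coloured by region and genotype. The rightmost point, hippocampus TDP-43KQ/KQ female replicate 1 at 3.4, is the highest in each panel.

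The upstream windows of Col8a1 and Col8a2, which shared this pattern, are shown with the same marking.
Col8a1 (chr16:57754738-57754987, minus strand): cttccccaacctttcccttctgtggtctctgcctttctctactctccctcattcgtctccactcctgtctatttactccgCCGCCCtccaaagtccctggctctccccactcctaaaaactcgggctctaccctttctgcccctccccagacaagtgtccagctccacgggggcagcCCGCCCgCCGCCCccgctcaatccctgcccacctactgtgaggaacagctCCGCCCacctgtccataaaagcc
Col8a2 (chr4:126286544-126286793, plus strand): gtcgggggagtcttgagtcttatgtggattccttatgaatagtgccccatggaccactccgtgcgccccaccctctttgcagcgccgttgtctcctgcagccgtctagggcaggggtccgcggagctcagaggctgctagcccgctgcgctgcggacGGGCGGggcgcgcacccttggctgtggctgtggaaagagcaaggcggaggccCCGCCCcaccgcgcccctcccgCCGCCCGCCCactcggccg
Each window held 4 GC boxes, some of those of Col8a2 overlapping, and neither a TATA box nor a CCAAT box.

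Markers of other collagen-bearing cells were read beside these results. The 20 markers of meningeal and perivascular fibroblasts, which make types I and III collagen, were positive in the hippocampus for 20 of 20 (median 0.30) and in the neocortex for 9 of 20 (median -0.016), with none called. Their mean was -0.12 to 0.16 in hippocampus TDP-43wt and 0.032 to 0.58 in hippocampus TDP-43KQ/KQ. About the group means over 20 libraries, Col1a2 had a correlation of 0.91 with this mean, beside 0.18 with the choroid marker mean. Col4a6 had 0.82, Col3a1 0.74 and Col1a1 0.64 with the fibroblast mean, while Col14a1 had 0.35 and Col18a1 -0.12. Libraries tied by the removal of sex and litter enter these correlations. No fit had the fibroblast mean as a covariate. Of 14 pericyte and smooth muscle markers 12 were positive in neocortex and 12 in hippocampus (medians 0.086 and 0.17), and of 14 endothelial markers 6 and 10 (medians -0.090 and 0.10), with none called. Their part in the collagen differences was not tested.

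The genes that make, bind and break down collagen gave few genotype calls. Of 34 biosynthesis genes none was called in either region, with 23 positive in neocortex (median 0.037) and 28 in hippocampus (median 0.10); the lowest adjusted p was that of Tll1, a procollagen C-proteinase, in the neocortex (-0.26 ± 0.056, adjusted p = 0.0644). None of 10 collagen receptors was called, with 6 and 6 positive, and none of 15 other basement membrane components, with 13 positive in each region (medians 0.15 and 0.23).

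In the hippocampus Timp3, a matrix-bound inhibitor among 16 metalloproteinases and inhibitors, was called at 0.58 ± 0.11 (adjusted p = 0.0392). Lum, the fibril-binding proteoglycan lumican, was called at 0.51 ± 0.098 (adjusted p = 0.0364) among 10 proteoglycans, of which 10 were positive (median 0.38). Leaving out 1 library ended the Timp3 call in 13 of 20 cases and the Lum call in 11. The largest adjusted p of these came without hippocampus TDP-43KQ/KQ female replicate 1, at 0.40 for Timp3 and 0.36 for Lum (adjusted p = 0.227 for both with limma). That fit called 8 of all genes between genotypes in the hippocampus, beside 69 in the main fit. Neither gene passed with the choroid marker mean as a covariate. Nor did either pass with each region fitted alone, where 0 of all genes were called in the hippocampus.

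Between the regions more of these genes were called. Of the 34 biosynthesis genes 10 were higher and 1 lower in the hippocampus of TDP-43wt, beside 13.5% and 14.7% of all genes, and 19 higher and 1 lower in TDP-43KQ/KQ, beside 17.2% and 18.2%. Plod2, a lysyl hydroxylase, was higher by 0.40 ± 0.070 in TDP-43wt and 0.43 ± 0.062 in TDP-43KQ/KQ, and the collagen chaperone Serpinh1 had 0.16 ± 0.12 and 0.52 ± 0.11, called in the latter. The collagen receptor Ddr2 was higher by 0.26 ± 0.082 and 0.48 ± 0.072, both called. The partners of basement membrane collagens went both ways. Of 15 such components 3 were called higher and 3 lower in TDP-43wt, and 7 higher and 3 lower in TDP-43KQ/KQ. The lowest differences were -1.04 and -1.09. The laminin chain Lamb1 was higher by 0.88 ± 0.089 and 0.99 ± 0.078, both called. Dcn, the proteoglycan decorin, was higher by 1.59 ± 0.21 and 1.85 ± 0.18, called in both genotypes.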

How the data were processed

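According to the paper's methods, reads were trimmed with cutadapt and mapped by STAR 2.5.2b to mm10 with RefSeq genes, and salmon estimated abundance. The authors then took sex and litter effects out of the variance-stabilized values (DESeq2 1.34.0, R 4.1.0). The deposited values are on a log2 scale; the largest sex or litter coefficient left in them was 4.76e-08. They hold no counts, so depth is unknown here and the spread between libraries sets the precision.

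Left out were 4383 genes at 0 in all libraries and genes with equal values in all 3 libraries that share a region, sex and litter. limma 3.58.1 (R 4.3.3) was fitted to the 17863 others over 20 libraries, with the 4 groups, sex and litter as terms (11 residual degrees of freedom); the scripts were tested on simulated data. Intervals are those of this fit. The paper's n for each region and genotype equals the number of libraries, but the animal behind each library is not named. P-values therefore measure the spread between libraries.

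Named collagens are those called, the 3 highest and 3 lowest moderated statistics of each genotype comparison, and a set list; Col6a4 to Col6a6, Col8a1, Col17a1 and those listed from other fits were named after their values were seen. Members, classes and lists were chosen with earlier results of these data known. Promoters and coordinates are RefSeq's for GRCm38.p6, the assembly of mm10. The labels do not say that replicate numbers pair samples, and they were not taken to; the values cannot settle it, since removing litter forces some libraries apart (of 6 female pairs with 1 number in both regions, 2 had a correlation over 0.1, and 1 was at -1 by construction).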

Additional observations from a re-analysis of the deposited data

Results flagged for a closer look

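Over 104 groups of 4 to 6 libraries (26 named collagens in the 4 groups), 3 held a library whose gap to the next one was large for its group, where chance alone marks about 1 in 20 groups. Col9a1 in hippocampus TDP-43wt female replicate 2 was at -0.27, with the other 3 libraries between 0.014 and 0.046. Col26a1 in neocortex TDP-43wt female replicate 2 was at -0.44, with the other 4 between -0.20 and -0.11. Col22a1 in neocortex TDP-43KQ/KQ male replicate 3 was at 0.18, with the other 5 between -0.091 and 0.0047.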

How the results depend on the processing

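The count of collagens with positive genotype differences ranged over all alternatives from 35 to 41 (neocortex) and from 31 to 41 (hippocampus). With neither sex nor litter as terms, 8 collagens were called between genotypes in neocortex, 10 in hippocampus, and 13 between regions in TDP-43wt; with sex alone these were 4, 7 and 11, and with litter as a random effect 8, 10 and 11. Over all genes the counts rose too, from 40, 69 and 5041 to 2381, 2077 and 7562 (neither term), 1812, 1584 and 7167 (sex alone) and 2396, 2114 and 7257 (litter random). These fits add residual degrees of freedom for terms already removed from the values. With the regions fitted alone, 7 of all genes were called between genotypes in the neocortex and 0 in the hippocampus. No collagen was among them, and the basement membrane median in the hippocampus was 0.54.

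The replicate block of sex and number called 12 collagens between regions in TDP-43wt and 19 in TDP-43KQ/KQ, beside 6091 and 6858 of all genes, and gave Col10a1 a hippocampal genotype difference of 0.00056; the replicate block joining the regions of female libraries called 8 in TDP-43KQ/KQ, all among the 15, beside 4566 of all genes. Neither changed the count of 0 in any genotype comparison it could fit, and the Timp3 and Lum calls were lost under the former.

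Without both libraries of TDP-43wt female replicate 2, chosen after seeing the data, 11 collagens (4665 of all genes) were called between regions in TDP-43wt, the basement membrane median in the hippocampus was 0.24, that of the other collagens between regions in TDP-43wt 0.19, and Col10a1 had 0.022 between genotypes in the hippocampus. With the choroid plexus marker mean as a covariate, also added later, 8 collagens were called between regions in TDP-43wt and 5 in TDP-43KQ/KQ. In the latter the basement membrane median was 0.23 and Col8a2 had -0.078. The causes of these shifts were not tested.

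Leaving out 1 library at a time, the calls ranged from 0 to 1 between genotypes in the hippocampus. There was 1 without either library of TDP-43KQ/KQ female replicate 2 (93 of all genes) or without hippocampus TDP-43KQ/KQ female replicate 3 (114). Between regions in TDP-43wt the calls ranged from 3 to 15. The 3 were without neocortex TDP-43wt female replicate 3 (3653 of all genes) and the 15 without hippocampus TDP-43wt female replicate 2 (5882). The basement membrane median ranged from 0.24 to 0.51 between genotypes in the hippocampus and from 0.15 to 0.46 between regions in TDP-43wt, where the fibrillar median ranged from 0.11 to 0.42 and the other collagens from 0.025 to 0.26. Genotype differences near 0 changed sign: Col10a1 in the hippocampus from -0.053 to 0.022, Col20a1 there from -0.27 to 0.011, and Col9a1 in the neocortex from -0.043 to 0.012.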
